A study of Mus musculus with 6 samples.

Results

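Small nucleolar RNA (snoRNA) host genes are non-coding genes whose introns carry snoRNAs. A set of 10 of them, Gas5, Snhg1, Snhg3, Snhg5, Snhg6, Snhg8, Snhg12, Snhg15, Snhg17 and Snhg20, was taken by gene name from the 55850 gene rows measured in mouse testis, and each name matched 1 row. None passed the test between conditional knockout (cKO) and wild-type (WT) testis. Of the 9 expressed above the filter, 7 differed by less than 0.2 on the log2 scale, as did 59.6% of all tested genes. Snhg20 had the largest measured difference, at 2.79 ± 0.215 FPKM in cKO testis and 5.17 ± 1.89 FPKM in WT testis (SD, n = 3 each). Snhg3 was almost without reads in every library.

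There were 3 testis samples with the cKO genotype and 3 with the WT genotype, none of them treated. Per the series title, the splicing factor SRSF2 was removed in Sertoli cells, the somatic cells that nurse germ cells. The sources used here do not give the age of the mice, the driver of the deletion, the deleted part of the gene, or whether each sample is 1 animal. Every p-value thus rests on variation among 3 samples per genotype, part of which could be technical. The values are FPKM, reads per kilobase of gene length scaled for each library. In whole tissue, fewer cells of a type and less RNA per cell cannot be told apart. Srsf2 itself was at 82.9 ± 7.70 FPKM in cKO testis and 108.5 ± 16.2 FPKM in WT testis (SD, n = 3 each). Every cKO library lay below every WT library, as for 9.92% of all tested genes. The log2 difference of -0.38 did not pass over all genes (limma adjusted p = 0.384). All 17 Sertoli and 11 of 12 germ cell markers were expressed above the filter.

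Host transcripts are spliced and exported, and their snoRNAs are trimmed out of the removed introns. SnoRNAs of the box C/D class guide methylation of ribosomal RNA, and those of the H/ACA class guide pseudouridylation, in both cases as particles with fixed sets of proteins. The exons that remain hold only short reading frames, so ribosomes stop early on them and nonsense-mediated decay (NMD) removes many of these transcripts, for which Gas5 is a textbook case. SR proteins such as SRSF2 take part in splicing and have also been linked to NMD.

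The deposited table holds 35 rows for small RNAs nested within the 10 hosts, of which 33 are snoRNAs, 1 is a small Cajal body RNA and 1 a microRNA. Gas5 carries 10 of the snoRNA rows, Snhg1 8, Snhg12 5, Snhg17 3, Snhg3 and Snhg5 2 each, and Snhg6, Snhg8 and Snhg15 1 each. Snhg20 carries the small Cajal body RNA and the microRNA. Small RNAs that GENCODE M21 on GRCm38 lists under another identifier were not matched. By gene identifier, 30 were found there and their sequences were read. On the sense strand, 14 held TGATGA within the first 20 bases and CTGA within the last 20 (boxes C and D), and 6 held ACA followed by 3 last bases (the ACA box). Among all 1507 snoRNAs of that annotation the shares were 20.5% and 18.0%. A match is a description, and looser box spellings were not searched. Those below show both classes, in lower case with the boxes in capitals; Snord87, in Snhg6, is shown first because its row was the only 1 of the 35 with a read.
Snord87 (chr1:9942463-9942549, minus strand): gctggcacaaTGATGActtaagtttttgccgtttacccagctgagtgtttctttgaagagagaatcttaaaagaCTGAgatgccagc
Snord47, in Gas5 (chr1:161038082-161038158, plus strand): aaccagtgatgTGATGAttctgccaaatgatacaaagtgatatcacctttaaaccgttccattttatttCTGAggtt
Snord99, in Snhg12 (chr4:132310691-132310764, plus strand): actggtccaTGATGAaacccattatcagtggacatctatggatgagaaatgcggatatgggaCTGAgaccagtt
Snora24, in Snhg8 (chr3:123507937-123508066, minus strand): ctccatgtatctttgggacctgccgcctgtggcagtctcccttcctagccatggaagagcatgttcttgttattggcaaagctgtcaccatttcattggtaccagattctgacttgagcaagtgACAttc
Snora9, in Snhg15 (chr11:6528033-6528165, minus strand): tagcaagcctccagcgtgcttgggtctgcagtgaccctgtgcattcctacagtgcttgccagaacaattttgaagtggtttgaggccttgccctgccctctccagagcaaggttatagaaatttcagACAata

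The small RNA rows give no level for the mature snoRNAs. The Snord87 row had 2 reads in cKO replicate 2 and 1 read in WT replicate 2, and 0 in the other 4 libraries. The other 34 rows had 0 reads in all 6 libraries, where a count of 0 allows up to 3 reads in a library. Across the table, 286 of 1507 snoRNA rows had at least 1 read and 89 had at least 10 reads over the 6 libraries. Of the 30 nested small RNAs found by identifier in GENCODE M21, 27 lie wholly inside annotated exons of their host. No source used here says how a read shared by 2 annotated genes was counted, and whether such reads were dropped was not tested.

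Annotated exons, with retained introns among them in some hosts, also bear on the length behind each FPKM value. For Gas5 the table's length is 3760 bases, 91.3% of the gene's span, whereas its longest annotated transcript without a retained intron has 665 bases. For Snhg1 the table's length of 2969 bases is the whole span, and the longest such transcript has 709 bases. Snhg8 and Snhg12 also have table lengths equal to their spans, at 853 and 2402 bases. Levels per length of spliced RNA could therefore be understated by unequal amounts among the hosts, but where reads fell along each gene was not examined. The comparison of cKO with WT uses the same length on both sides. For 8 of the 10 genes the table's length equalled the exon total of GENCODE M21. Snhg5, at 3634 bases in the table against 1730 in M21, and Snhg15, at 2652 against 1359, had longer models in the deposited table.

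**Figure D1:**
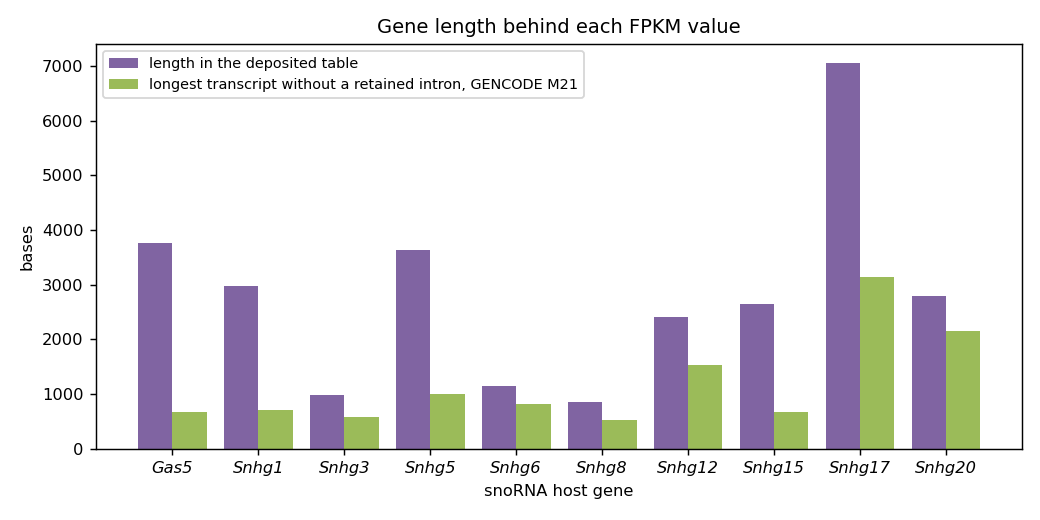
Bars give, for each of the 10 snoRNA host genes, the gene length in bases used in the deposited table (purple) and the longest GENCODE M21 transcript without a retained intron (green). The table's length exceeds that of the longest such transcript in every gene, for Gas5 at 3760 against 665 bases.

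Transcription starts were described as a feature that the choice of the genes by name did not use. Whether their motifs go with the variation of hosts between libraries was not tested. The RefSeq promoter table (GRCm38.p6) held 11 starts for 9 of the 10 genes; Snhg6 had no entry. TATA, whose reverse complement is itself, lay wholly between 40 and 21 bases before the start, both ends counted, at 4 of the 11 starts, those of Gas5, Snhg1, Snhg8 and Snhg12, against 5.34% of all 32851 starts in the table. A C followed by at least 4 bases that are each C or T, searched on the sense strand within 10 bases of the start, was present at 4 starts, those of Gas5, Snhg3, Snhg8 and Snhg12, against 26.5% of all starts. Such a pyrimidine tract at the first base is the mark of terminal oligopyrimidine transcripts, whose translation follows the mTOR kinase. The windows below run from 45 bases before the start through the first 20 transcribed bases, with both motifs in capitals, and Snhg20 is shown as a host with neither.
Gas5 (chr1:161035121-161035185, plus strand): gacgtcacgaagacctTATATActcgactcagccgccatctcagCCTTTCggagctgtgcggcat
Snhg8 (chr3:123508317-123508381, minus strand): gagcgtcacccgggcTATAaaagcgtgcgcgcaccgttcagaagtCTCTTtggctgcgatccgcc
Snhg12 (chr4:132308633-132308697, plus strand): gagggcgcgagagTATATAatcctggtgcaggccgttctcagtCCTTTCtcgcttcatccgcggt
Snhg1 (chr19:8723442-8723506, plus strand): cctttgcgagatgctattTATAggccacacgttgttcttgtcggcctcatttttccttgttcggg
Snhg5 (chr9:88522878-88522942, minus strand): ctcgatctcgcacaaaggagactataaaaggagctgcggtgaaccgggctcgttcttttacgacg
Snhg20 (chr11:117076738-117076802, plus strand): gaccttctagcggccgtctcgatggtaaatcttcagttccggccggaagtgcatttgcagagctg
In Snhg5 the nearest TATA began 23 bases before the start and so ended 1 base outside the window. In Gas5 and Snhg12 the capitals join 2 overlapping matches of each motif.

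Differences between cKO and WT testis were tested with limma on log2(FPKM + 1) over the 14238 genes with a mean of at least 1 FPKM, with p-values adjusted over all of them. Of the 10 hosts, 9 entered the test and 0 passed an adjusted p of 0.05, a threshold passed by 0.014% of all tested genes (0.00702% higher and 0.00702% lower in cKO). By limma voom on recovered reads 0 passed as well. At an unadjusted p under 0.05 there was 1 host, Snhg20, beside 12.3% of all tested genes (4.65% higher and 7.68% lower in cKO). The log2 difference was below 0 in 7 hosts and above 0 in 2, with a median of -0.08, against a median of 0.0049 over all tested genes and 49.2% of them below 0. The 95% interval lay between -1 and 1, that is, within a doubling or halving on this scale, in 8 of the 9. Snhg20 was the exception. A p that misses the threshold does not show that levels were alike, and the widest interval, that of Snhg6, ran from -0.66 to 0.51.

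**Figure D2:**
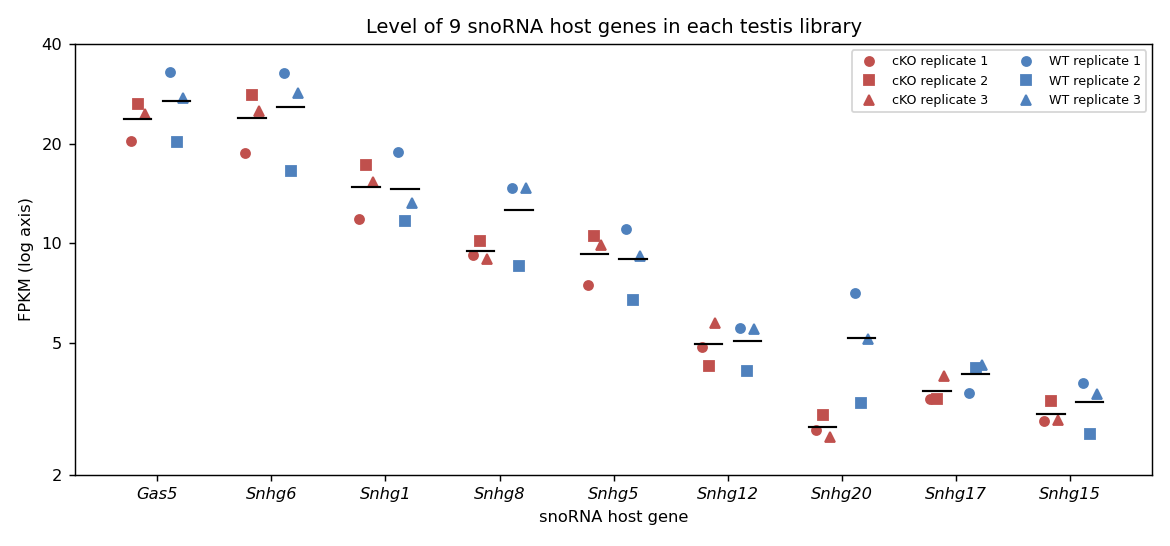
FPKM on a log axis for the 9 tested snoRNA host genes, ordered by mean level, with cKO libraries (red) left of WT libraries (blue), a symbol for each replicate and a bar at each group mean. The groups overlap for every gene except Snhg20, and WT replicate 2 (blue square) is the lowest library for 7 of the 9.

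Gas5 and Snhg6 had the highest mean FPKM of the hosts, by the deposited gene lengths. These lengths exceed those of the longest transcripts without a retained intron by unequal amounts. An order per spliced length could thus differ and was not computed. Over the 6 libraries the order of mean FPKM was Gas5, Snhg6, Snhg1, Snhg8, Snhg5, Snhg12, Snhg20, Snhg17 and Snhg15. Neighbours in that order had overlapping ranges, except that every Snhg5 value was above every Snhg12 value. Gas5, first found in growth-arrested fibroblasts and lying at chr1:161034422-161038539 on the plus strand, had 20.4, 26.4 and 24.5 FPKM in cKO testes, against 32.8, 20.2 and 27.6 FPKM in WT testes. The lowest library was WT replicate 2 and the highest WT replicate 1, so the 3 cKO values lay between them. The log2 difference was -0.15 (SE 0.19, 95% interval -0.58 to 0.28, limma adjusted p = 0.745). Snhg6, the host of Snord87 at chr1:9941959-9944118 on the minus strand, had 18.7, 28.0 and 25.1 FPKM in cKO testes, against 32.6, 16.6 and 28.5 FPKM in WT testes. Again all cKO values lay inside the WT range. Its log2 difference was -0.08 (SE 0.25, 95% interval -0.66 to 0.51, limma adjusted p = 0.914). Snhg6 shares 11.1% of its exon bases with Mcmdc2 on the opposite strand, and whether the counting used strand is not stated.

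Snhg1 and Snhg5, both hosts of box C/D snoRNAs, had group means that differed by less than the spread between replicates. Snhg1, at chr19:8723475-8726443 on the plus strand, had 11.9, 17.2 and 15.3 FPKM in cKO testes, against 18.9, 11.7 and 13.2 FPKM in WT testes. Its log2 difference was 0.03 (SE 0.20, 95% interval -0.43 to 0.49, limma adjusted p = 0.960). Snhg5, at chr9:88521050-88522929 on the minus strand and the host of Snord50a and Snord50b, had 7.48, 10.5 and 9.86 FPKM in cKO testes, against 11.02, 6.75 and 9.16 FPKM in WT testes. Its cKO values again lay within the WT range. The log2 difference was 0.05 (SE 0.19, 95% interval -0.38 to 0.49, limma adjusted p = 0.918).

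Snhg8, the host of the H/ACA snoRNA Snora24 at chr3:123507552-123508404 on the minus strand, was lower in cKO testis on average without passing. It had 9.20, 10.2 and 8.98 FPKM in cKO testes, against 14.7, 8.52 and 14.7 FPKM in WT testes. WT replicates 1 and 3 stood above all cKO libraries and WT replicate 2 below them. The cKO mean was 74.8% of the WT mean, and the log2 difference was -0.35 (SE 0.20, 95% interval -0.81 to 0.11, limma adjusted p = 0.494). It was -0.59 without WT replicate 2 and -0.23 without WT replicate 1.

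Snhg12, Snhg17 and Snhg15 were low and near even between the groups. Snhg12, at chr4:132308623-132311024 on the plus strand and the host of both H/ACA and C/D snoRNAs, had 4.85, 4.28 and 5.74 FPKM in cKO testes, against 5.55, 4.12 and 5.52 FPKM in WT testes, a log2 difference of -0.02 (95% interval -0.37 to 0.32, limma adjusted p = 0.958). Snhg17, at chr2:158353700-158361580 on the minus strand, had 3.38, 3.39 and 3.97 FPKM in cKO testes, against 3.54, 4.21 and 4.30 FPKM in WT testes, a log2 difference of -0.13 (95% interval -0.42 to 0.16, limma adjusted p = 0.669). Snhg15, the host of Snora9 at chr11:6525591-6528760 on the minus strand, had 2.92, 3.34 and 2.93 FPKM in cKO testes, against 3.79, 2.65 and 3.52 FPKM in WT testes, a log2 difference of -0.08 (95% interval -0.41 to 0.25, limma adjusted p = 0.821). In each of the 3 genes the groups overlapped.

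Snhg20, at chr11:117076008-117078955 on the plus strand, had 2.72, 3.02 and 2.61 FPKM in cKO testes, against 7.09, 3.30 and 5.13 FPKM in WT testes. The cKO libraries were close together and all lay below the lowest WT library, WT replicate 2, while WT replicates 1 and 3 were well above them. The cKO mean was 53.8% of the WT mean. The log2 difference was -0.66 (SE 0.22, 95% interval -1.16 to -0.16), with a limma adjusted p = 0.379 and an exact two-sided permutation p of 0.1, the smallest that 3 against 3 can give. Snhg20 was the 1 host of 9 with no overlap between the groups; the groups did not overlap for 18.6% of all tested genes, with cKO lower for 9.92% and higher for 8.69%. These values rest on 130, 149 and 119 reads in cKO and 315, 155 and 234 reads in WT libraries. The narrowest gap was between cKO replicate 2 and WT replicate 2, with 149 and 155 reads. Counting alone allows a spread of 8.68% in cKO and 6.53% in WT for this gene. The difference was -0.44 without WT replicate 1 and -0.90 without WT replicate 2. It remained below 0 under all 14 other settings that tested it, with a lowest adjusted p of 0.173.

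Snhg3, at chr4:132348014-132353686 on the minus strand and the host of Snora73a and Snora73b, was under the filter. It had 2, 0 and 0 reads in cKO testes, against 4, 1 and 0 reads in WT testes, so both groups were at or near the floor of 3 reads per library and no fold is given. Of its exon bases, 71.5% are shared with Gm17300 on the opposite strand and 13.7% with Rcc1, a coding gene on the same strand. How reads over shared bases were assigned was not tested, so the row's low count is not read as a low level of the transcript.

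**Figure D3:**
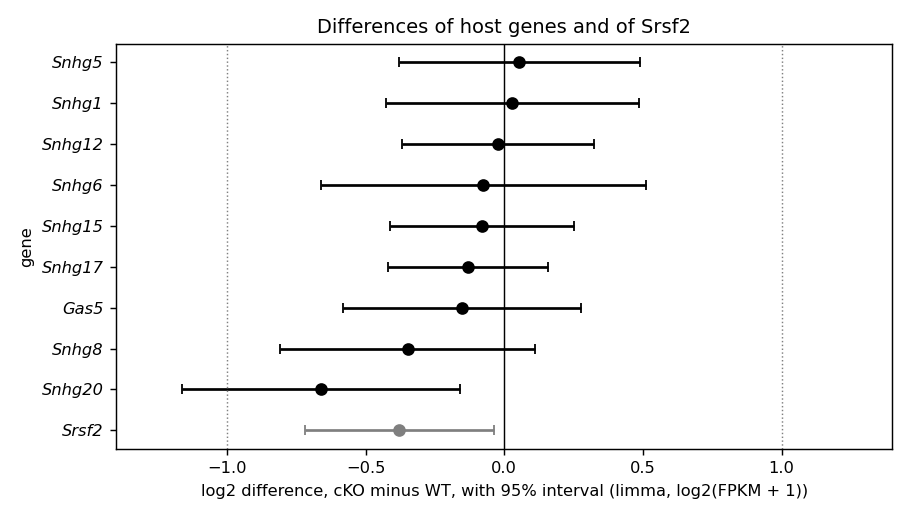
Points give the log2 difference, cKO minus WT, of the 9 tested snoRNA host genes and of Srsf2 (grey), bars the 95% interval from limma, and dotted lines a difference of 1 in either direction. The interval of Snhg20 (-1.16 to -0.16) is the only 1 among the hosts that leaves out 0, and the adjusted p of every gene shown is above 0.05.

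Spread between libraries was wider than counting error for the abundant hosts. The coefficient of variation of Gas5 was 12.9% among cKO and 23.6% among WT libraries, where its reads allow 2.56% and 2.47% from counting alone. For Snhg6 it was 19.8% in cKO and 32.1% in WT, where counting allows 4.63% and 4.56%. Snhg8, Snhg15 and Snhg20 had spreads of 6.74%, 7.79% and 7.71% in cKO, close to their counting errors of 8.53%, 8.50% and 8.68%. Among WT libraries the same 3 genes spread by 28.2%, 18.0% and 36.6%. In WT the spread of every host was larger than counting error.

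Most of the hosts varied together from library to library. Centred on each gene's mean over the 6 libraries, the mean of the 9 hosts was -0.22, 0.02 and -0.03 log2 units in cKO replicates 1, 2 and 3, and 0.32, -0.25 and 0.16 in WT replicates 1, 2 and 3. WT replicate 1 was the highest library for 6 hosts, WT replicate 2 the lowest for 7, and in cKO replicate 1 all 9 lay below their own mean. The largest contrast was thus between WT libraries. Over the 6 libraries, Pearson's r between pairs of hosts had a median of 0.58 over 36 pairs. Among Gas5, Snhg1, Snhg5 and Snhg6 it ran from 0.85 to 0.97 over 6 pairs. Snhg17 was an exception, with r from -0.43 with Snhg1 to 0.16 with Snhg12. These are descriptions over 6 libraries that share depth and composition with every gene in them, and the 4 hosts were grouped after their values were seen.

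**Figure D4:**
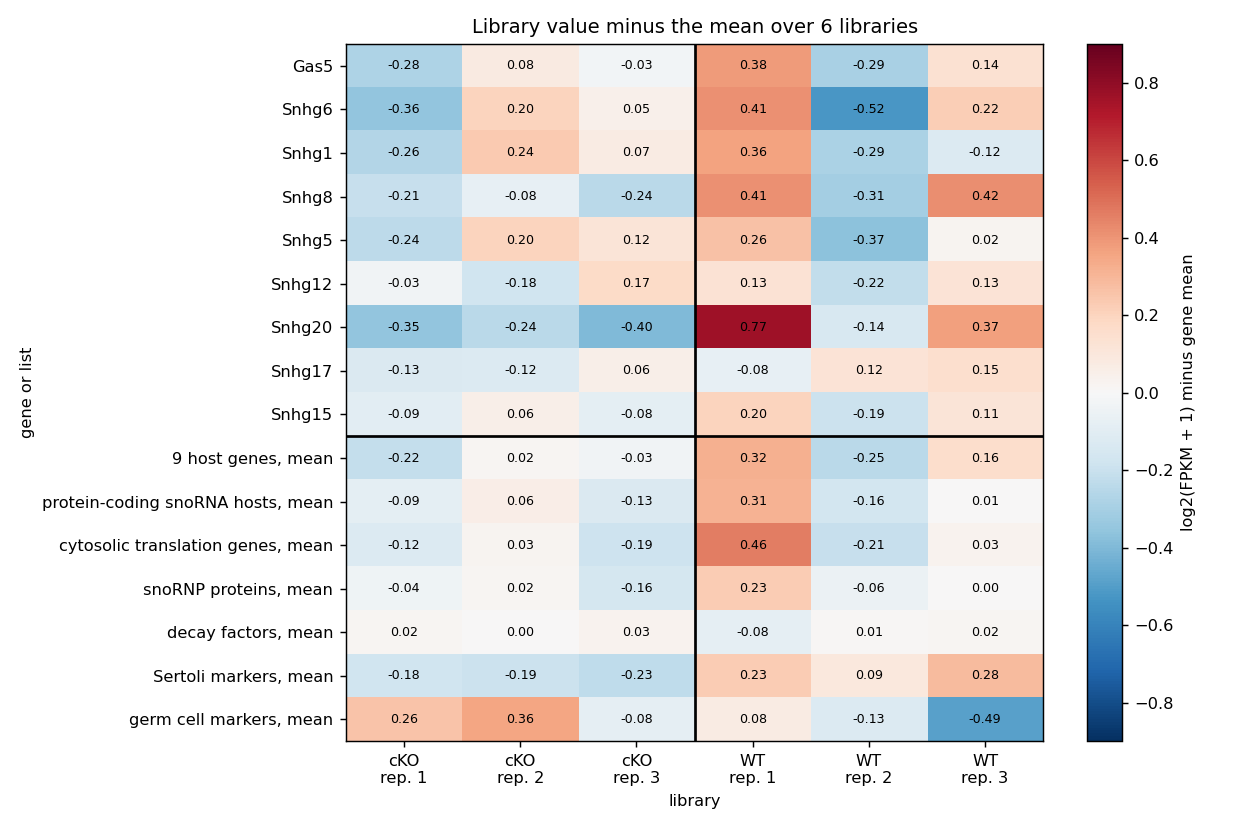
Each cell is a library's log2(FPKM + 1) minus the mean over the 6 libraries, for the 9 hosts (upper block, by level) and as the mean over genes of each list (lower block), with cKO libraries left of WT libraries. WT replicate 1 is high and WT replicate 2 low for most hosts and for the cytosolic translation genes, at 0.46 and -0.21, while the decay factors stay between -0.08 and 0.03.

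Genes of the translation apparatus had the same high library. A list of 39 ribosomal protein and translation factor genes with terminal oligopyrimidine starts stood at -0.12, 0.03 and -0.19 in cKO replicates 1, 2 and 3, and at 0.46, -0.21 and 0.03 in WT replicates 1, 2 and 3. Of its 39 genes 0 passed over all genes, 34 had a negative difference and the median was -0.15 on the log2 scale. At an unadjusted p under 0.05, 5 of the 39 were lower and 0 higher, beside 7.68% lower and 4.65% higher over all tested genes. Rpl11 was at 141 ± 15.6 FPKM in cKO and 227 ± 63.7 FPKM in WT testis (SD, n = 3 each, limma adjusted p = 0.379), with overlapping groups. The 18S ribosomal RNA took 0.811, 0.835 and 0.727% of recovered reads in cKO replicates 1, 2 and 3, against 2.09, 1.58 and 1.65% in WT replicates 1, 2 and 3. The part of library composition in the host values was not tested.

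The 5 protein-coding genes most like the mean of the hosts, by Pearson's r over the 6 libraries, were Bambi (0.998), Dhrs7 (0.996), Ism2 (0.995), Atf4 (0.993) and Ndufs3 (0.993). The middle 95% of r over all 14238 tested genes ran from -0.86 to 0.89, so high values are common with 6 libraries. Atf4, a transcription factor of the stress response, had 66.7, 73.2 and 72.5 FPKM in cKO testes, against 86.5, 64.7 and 81.8 FPKM in WT testes. Its log2 difference was -0.12 (limma adjusted p = 0.728).

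Genes that make or use the products of the hosts were counted from lists chosen by function. Of 20 tested genes for snoRNA particle proteins and their assembly, 0 passed, 14 had a negative difference and the median was -0.12. Gar1, a core protein of H/ACA particles, was at 10.3 ± 0.616 FPKM in cKO and 15.5 ± 0.986 FPKM in WT testis (SD, n = 3 each), with no overlap (log2 difference -0.55, SE 0.11, limma adjusted p = 0.360). Ruvbl2, an ATPase of particle assembly, was at 20.2 ± 1.16 FPKM in cKO and 24.3 ± 1.004 FPKM in WT testis, also with no overlap (limma adjusted p = 0.401). The groups did not overlap for 18.6% of all tested genes. At an unadjusted p under 0.05, 2 of the 20 were lower and 0 higher, beside 7.68% lower and 4.65% higher over all tested genes. Of 32 protein-coding snoRNA hosts, mostly ribosomal protein genes, 0 passed and the median was -0.07. Eif4g2, a translation initiation factor gene, had a log2 difference of 0.28 and Rps3 one of -0.49 (limma adjusted p = 0.412 and 0.399).

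Other genes known as non-coding were taken as a list of 15 names, 14 of them in the table and 10 tested, where the table lists 1 of the 10, Snhg11, as protein-coding. It holds further snoRNA hosts, the Meg3, Rian and Mirg transcripts of the imprinted cluster, and the RNase RNAs Rmrp and Rpph1. None of the 10 passed, 8 had a negative difference and the median was -0.16. Zfas1, an NMD-sensitive snoRNA host, had 13.7, 13.5 and 13.6 FPKM in cKO testes, against 23.6, 12.6 and 22.3 FPKM in WT testes. As in Snhg8, WT replicates 1 and 3 were high and WT replicate 2 lay below all cKO libraries (log2 difference -0.44, limma adjusted p = 0.436). Meg3 was at 16.1 ± 0.122 FPKM in cKO and 22.8 ± 2.73 FPKM in WT testis (SD, n = 3 each, limma adjusted p = 0.361). Its groups did not overlap, as was so for 18.6% of all tested genes. Rmrp and Rpph1, which every cell uses, were listed at 0 in all libraries.

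NMD factors and coding NMD targets gave no call either. Of 24 tested decay factors 0 passed, with 12 positive and 12 negative differences and a median of 0.03. Upf3a, one of these factors, was at 5.71 ± 0.758 FPKM in cKO and 8.15 ± 1.56 FPKM in WT testis (SD, n = 3 each, limma adjusted p = 0.380), with overlapping groups. Upf2, whose protein binds UPF1, had a log2 difference of 0.23 (limma adjusted p = 0.406), without overlap, as for 18.6% of all tested genes. Of 28 tested coding genes known as natural decay targets, 0 passed, 11 had a positive difference and the median was -0.05. At an unadjusted p under 0.05, 2 of the 28 were higher (Ptbp2 and Cdkn1a) and 2 lower (Srsf2 and Rps3). Over all tested genes the shares were 4.65% higher and 7.68% lower. In each of the 4 the groups did not overlap, as was so for 18.6% of all tested genes. Srsf2 is the gene removed in the cKO, so its lower value is not read as a result about decay targets. Rps3 is also in the list of protein-coding snoRNA hosts. Ptbp2, a splicing regulator of neurons and germ cells, was at 10.7 ± 1.34 FPKM in cKO and 6.26 ± 0.309 FPKM in WT testis (SD, n = 3 each, log2 difference 0.69, limma adjusted p = 0.306). Cdkn1a, the cell cycle inhibitor p21, was at 2.23 ± 0.224 FPKM in cKO and 1.305 ± 0.0854 FPKM in WT testis (SD, n = 3 each, log2 difference 0.48, limma adjusted p = 0.372). The Sertoli marker list had a median of -0.41 over 17 genes and the germ cell list 0.40 over 11. Summed over the list, Sertoli markers ran from 1246 to 1437 FPKM in cKO and from 1721 to 2215 FPKM in WT libraries, and germ cell markers from 287 to 429 FPKM in cKO and from 223 to 380 FPKM in WT libraries. The part of these markers in the host values was not tested.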

How the data were processed

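RNA of 6 mouse testis samples was sequenced; per the labels' protocols, extraction used Trizol and libraries a SMARTER mRNA-Seq kit. The authors deposited FPKM per gene with a gene length in bases. Builds GRCm38 and mm10 are named in the submitters' processing notes; no source used here names the aligner, counter, annotation or strand setting. FPKM multiplied by length and divided by 1 factor per library, the worth of 1 read estimated from that library's values, gave whole reads for 100% of values above 0 (tolerance 0.01), from 16070287 to 17281330 per library, so counting error is small for all but the lowest genes. Median-of-ratios factors were equal in all 6 libraries, so the deposited values carry that scaling rather than one to total reads. Coordinates are those of GENCODE M21 on GRCm38 by gene identifier.

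The main test, cKO minus WT, used limma 3.58.1 in R 4.3.3 on log2(FPKM + 1), with the prior variance following expression, for every gene averaging 1 FPKM or more. P-values were adjusted by Benjamini-Hochberg over all of these genes; on this scale differences of low genes are understated. The procedure was tested on simulated data with planted differences larger than those measured for the hosts, so that test does not give the power for the hosts. Alternatives were a pseudocount of 0.1, other filters and scalings, removal of length and GC trends (natural splines with 5 degrees of freedom), limma voom on recovered reads (at least 10 in at least 3 libraries), the replicate number as a block, and leaving out each library. Named genes were the 10 hosts, Srsf2, up to 4 genes of each list by p, and 5 by likeness; Snhg11 and Snhg16 were named after their values were seen. The members and lists were chosen with earlier results of these data known. Python 3.11.15 (pandas 2.3.3, numpy 2.4.6, scipy 1.17.1, matplotlib 3.10.9) served for tables and plots. Floors and counting errors cover counting only, while the 95% intervals come from limma and rest on the spread between libraries.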

Additional observations from a re-analysis of the deposited data

How the results depend on the processing

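No host passed under any of the 15 other settings, where the lowest adjusted p was 0.173, and the median of the tested hosts stayed between -0.20 and 0.0019. Of 132 host values under these settings 118 kept their sign and 14 turned, all in genes with differences near 0; the cause was not tested. With length and GC trends removed, Snhg1 stood at -0.17, Snhg5 at -0.086, Gas5 at -0.33 and Snhg6 at -0.23. Leaving out 1 library, Gas5 ranged from -0.33 to 0.0019, Snhg1 from -0.11 to 0.22, Snhg5 from -0.12 to 0.20, Snhg6 from -0.35 to 0.11 and Snhg12 from -0.14 to 0.061. Signs turned without WT replicate 1 in Gas5, Snhg6 and Snhg12, without WT replicate 2 in Snhg1 and Snhg5, without WT replicate 3 in Snhg1, Snhg6 and Snhg12, without cKO replicate 1 in Snhg6, and without cKO replicate 2 in Snhg1, Snhg5 and Snhg12. Scaling to total recovered reads, a setting chosen after seeing the data, turned none. Srsf2 stayed between -0.46 and -0.26.

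Over all genes, 2 passed in the main test, 1 with voom, 1 with a mean FPKM of at least 5, 1 with a pseudocount of 0.1, 3 with length and GC trends removed, 2 with total-read scaling, 0 without a filter, and 0 with any 1 library left out. With the replicate number as a block 0 genes and 0 hosts passed. Same-numbered samples deviated with correlations of 0.09, -0.33 and 0.39 over genes, and differently numbered samples with correlations from -0.45 to 0.35. These values describe expression only, so they cannot decide whether the numbers pair the samples. The mean filter of 5 removed Snhg15, Snhg17 and Snhg20 from the test. Without a filter Snhg3 entered the test and did not pass (limma adjusted p = 0.800). Its reads were at or near the floor, where adding 1 FPKM draws any difference towards 0, so this is not read as a lack of change.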

Other observations

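Snhg20 lies 223 kb from Srsf2 on chromosome 11, an observation made after its values were seen. Of 11 other tested genes within 500 kb of Snhg20, Srsf2 among them, 10 had a negative log2 difference, beside 49.2% of all tested genes. Their median was -0.22, with a range from -0.38 to 0.26. Whether these neighbours share reads or vary independently of each other was not tested. By limma, 0 of the 11 passed over all genes and 1, Srsf2, had an unadjusted p under 0.05, beside 12.3% of all tested genes. Snhg16, another snoRNA host in this window, had 1.502, 1.49 and 1.79 FPKM in cKO testes, against 2.23, 1.81 and 1.94 FPKM in WT testes (log2 difference -0.21, limma adjusted p = 0.556). Its groups did not overlap, beside 18.6% of all tested genes.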
